A study of Mus musculus with 2 samples.

Results

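The BMP ligands and BMP target genes described here are 10 mouse genes: the ligand genes Bmp2, Bmp3, Bmp4, Bmp7 and Bmp8b, the protease gene Bmp1 that carries the family name, and the BMP-responsive genes Id1, Id2, Id3 and Smad6. They were read by 14 probes of 41174 on the array, and were found by matching the RefSeq accession of each probe to these symbols. All 10 had a probe, and 9 were measured, of 12877 genes measured in all. A gene counts as measured if a probe of it was well above background, by the scanner software's flag, in the same RNA on both arrays. The genes were chosen by symbol with their RankL over untreated ratios on these 2 arrays known, so those ratios are a description and carry no test.

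The RNA came from small-intestinal organoids of wild-type mice, epithelial structures grown from crypts in a gel. Organoids given recombinant mouse RankL (50 to 200 ng/ml, fresh medium on day 2 and day 5) were set against untreated organoids. RankL is the cytokine that activates the receptor RANK, and the series' title names M cells, the antigen-sampling cells over Peyer's patches, as what it induces. Both RNAs came from medium with EGF, R-spondin and Noggin, a secreted protein that binds BMPs, so the untreated organoids carry the BMP antagonist too. The sources used here do not give the dose and harvest day of these RNAs, the age of the mice or the number of cultures in each RNA. One RNA of each kind was put on 2 arrays with 2 colours. RankL RNA carried Cy3 on array 1 and Cy5 on array 2, its dye swap. With 1 RNA pair there is 1 replicate per group and no test was made. Ratios are RankL over untreated, given as the mean log2 value of both arrays ± their SD, a technical error that does not cover differences between cultures.

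Bone morphogenetic proteins are secreted ligands of the TGF-beta superfamily. They bind pairs of type I and type II receptor kinases, which phosphorylate Smad1, Smad5 and Smad9. These join Smad4, enter the nucleus and raise target genes, among which Id1, Id2, Id3 and Smad6 are the usual readouts. In the intestine BMP activity is high along the villus and low in the crypt, where antagonists made by the underlying stroma permit stem cell growth, and Noggin stands in for these antagonists in organoid culture.

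A total of 38.3% and 43.4% of spots were well above background in RankL RNA on arrays 1 and 2, and 39.6% and 40.1% in untreated RNA, and 0 were saturated. The SD between arrays was 0.0081 to 0.31 for the 9 measured genes (median 0.14), against a median of 0.15 over all genes. Epithelial markers (Epcam, Cdh1, Cdx1, Cdx2, Vil1, keratins and others) were measured in 10 of 10 cases. None of 8 leukocyte markers with a probe was measured. Of 6 endothelial markers 1 was measured, Lyve1, which was dim in RankL RNA and at least 2.14-fold lower there. Of 13 mesenchymal markers 4 were measured: Pdgfrb, and Col1a2, Vim and Acta2, which were well above background in both RNAs on both arrays. Col1a1, Col3a1, Pdgfra and Lum were not well above background on either array. Dcn was so in both RNAs on array 2 and in neither on array 1, and was not measured.

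The Id genes were higher with RankL by 4.23-fold to 7.10-fold, while the ligand genes did not share a direction. Genes are called higher or lower here by a size rule, met where the mean log2 ratio reached 1 in size (2-fold) and each array gave at least 0.5 with the same sign. By this rule 5 of the 9 measured genes were higher (Id1, Id2, Id3, Bmp2 and Bmp1), 1 was lower (Bmp3) and 3 were neither (Bmp7, Bmp8b and Smad6). Over all genes the rule called 5.47% higher and 2.5% lower, or 7.97% in either direction. The median log2 ratio was 1.28 over the 9 genes and 0.0086 over all genes measured. As the genes were picked with these ratios in view, nothing is read from the difference between the shares. In bulk RNA, a change in the number of cells of a type and a change in RNA per cell cannot be told apart.

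**Figure D1:**
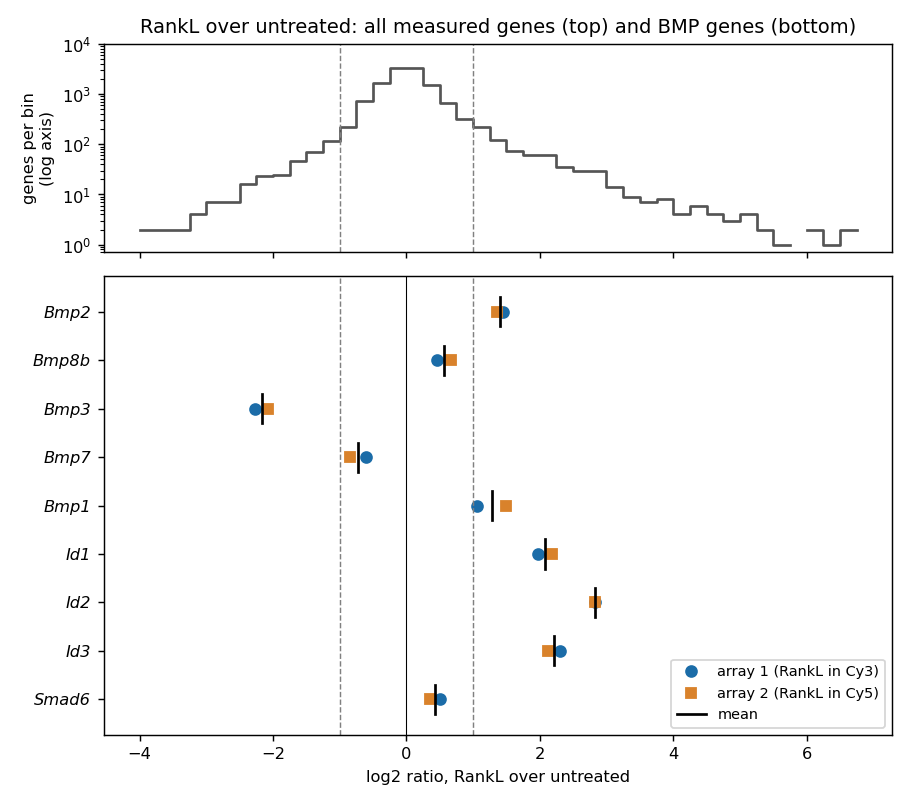
Top, number of measured genes (log axis) per 0.25 of mean log2 ratio of RankL over untreated; bottom, the ratio of each measured BMP gene on array 1 (circle) and array 2 (square) with the mean as a line, and dashed lines at -1 and 1. Id1, Id2 and Id3 lie from 2.08 to 2.83 and Bmp3 at -2.17, and the 2 arrays of each gene fall on the same side of 0.

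Id1, Id2 and Id3 encode helix-loop-helix proteins without a DNA-binding region, which bind E proteins and keep them off DNA. Id2 had the largest ratio of the set. Its brighter probe read a normalized log2 intensity of 10.77 and 10.92 in RankL RNA on arrays 1 and 2, and of 7.94 and 8.10 in untreated RNA. The ratio was 2.83 ± 0.0081 (2 arrays), or 7.10-fold, which placed Id2 at rank 83 from the top of 12877 genes. A second probe of Id2 read 2.58 ± 0.14. Both probes were high in RankL RNA on both arrays, with no overlap between the RNAs. Such a lack of overlap, here and in the genes below, comes from 2 arrays of 1 RNA pair. Its share over all genes was not counted, so nothing is read from it.

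Id3 was read by 1 probe, at 10.05 and 9.98 in RankL RNA and 7.75 and 7.85 in untreated RNA on the log2 intensity scale. Its ratio was 2.21 ± 0.12, or 4.63-fold. The brighter Id1 probe was at 9.47 and 9.80 in RankL RNA and at 7.49 and 7.61 in untreated RNA. The ratio of Id1 was 2.08 ± 0.15, or 4.23-fold, and its second probe read 1.83 ± 0.12. As with Id2, each RankL value of these probes lay above each untreated value.

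The ratio of Id2 was above that of Id1 by 0.86 on array 1 and 0.64 on array 2, and above that of Id3 by 0.54 and 0.69. The second probe of Id2 lay 0.25 below the first, so part of this gap is within the spread between probes of 1 gene. Id3 and Id1 differed by 0.32 on array 1 and -0.059 on array 2, that is with opposite signs. The order of Id3 and Id1 is therefore not settled by these arrays.

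**Figure D2:**
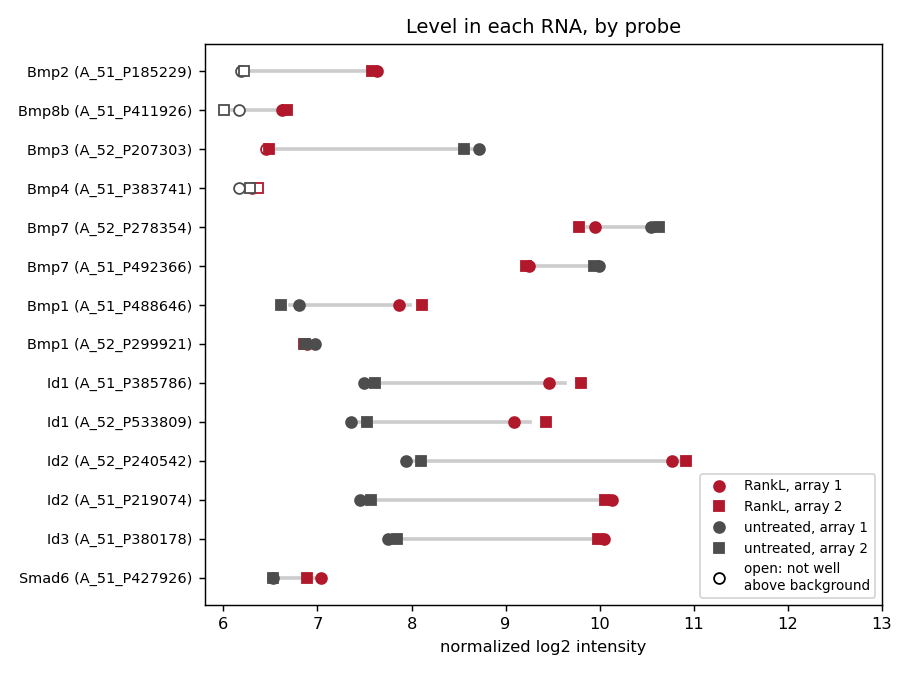
Normalized log2 intensity of each probe of the 10 genes in RankL RNA (red) and untreated RNA (grey) on array 1 (circles) and array 2 (squares), with open symbols where the probe was not well above background on that array. The 5 Id probes are filled in both RNAs, with RankL at least 9.09 and untreated at most 8.10; levels of different probes are not comparable.

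Smad6 encodes an inhibitory Smad that BMP signalling induces and that then blocks the receptors' action on Smad1 and Smad5. It was at 7.04 and 6.89 in RankL RNA and at 6.53 on each array in untreated RNA. The ratio of 0.43 ± 0.10, or 1.35-fold, did not meet the size rule. The Id ratios exceeded that of Smad6 by 1.65 ± 0.25 for Id1, 2.40 ± 0.096 for Id2 and 1.78 ± 0.016 for Id3. Smad6 was dim, with a spot brightness in RankL RNA of 90 over a local background of 18 on array 1, where the offset used in background correction compresses ratios. The scanner software's own ratios, made without that correction, gave 0.91 for Smad6.

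The sequence before the start site is shown for Id2 and Id3, as the 2 Id genes with a RefSeq promoter window here, and 30 bases around the start for Smad6, as the target that moved least. RefSeq windows in build GRCm38.p6 were found for 5 of the 10 genes (Bmp4, Bmp8b, Id2, Id3 and Smad6). Capitals mark 3 motifs searched on both strands from 250 bases before to 50 bases after the start: GGCGCC, the GC-rich element known from Id promoters, the palindromic Smad-binding element GTCTAGAC, and CAGAC, a short Smad site that neither of the others contains. The window of Id2 is chr12:25096093-25096342 on the minus strand, that of Id3 chr4:136143572-136143821 on the plus strand and that of Smad6 chr9:64022045-64022074 on the minus strand. Each is written 5′ to 3′ along the gene.
Id2: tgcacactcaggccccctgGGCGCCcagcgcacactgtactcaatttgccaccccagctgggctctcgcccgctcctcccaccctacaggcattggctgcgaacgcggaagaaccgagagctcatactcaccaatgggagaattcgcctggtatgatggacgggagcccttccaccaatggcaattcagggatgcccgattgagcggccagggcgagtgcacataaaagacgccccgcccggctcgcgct
Id3: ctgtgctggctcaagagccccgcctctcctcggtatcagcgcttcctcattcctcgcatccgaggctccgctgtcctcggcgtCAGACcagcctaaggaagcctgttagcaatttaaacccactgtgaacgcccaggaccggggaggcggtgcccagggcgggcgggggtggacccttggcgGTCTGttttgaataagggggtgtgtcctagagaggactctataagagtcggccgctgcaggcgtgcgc
Smad6: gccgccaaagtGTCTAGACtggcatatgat

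Id2 held 1 GGCGCC, from position -231 to -226 counted from the start site, and this motif was present in 11.9% of 32851 windows of that length. Id3 held 2 matches to CAGAC or its complement, beginning at -167 and -68, a motif found in 49.6% of windows. Smad6 held 1 GTCTAGAC across the start, from -4 to 4, which 0.213% of windows had. The window of Bmp8b held 1 CAGAC match and that of Bmp4 held none of the 3. The kappaB consensus, the NF-kB site, was searched along the gene's strand only and had 0 matches in the 5 windows against 5.89% of all windows. At that share 0 matches in 5 windows is the likely outcome, so nothing is read from it. Id1, Bmp1, Bmp2 and Bmp3 had no window to search. These are matches of letters, and binding was not measured.

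Among the ligands, Bmp2 was higher and Bmp3 lower, and Bmp7 shifted down without meeting the rule. Bmp2, a ligand that signals through Smad1 and Smad5, has 1 probe printed 10 times. Its level in RankL RNA was 7.63 on array 1 and 7.58 on array 2. In untreated RNA it read 6.19 and 6.22, and 0 of 10 spots on each array were well above background there, with a mean spot brightness of 131.5 over a local background of 117.4 in Cy5 and of 46.2 over 22.9 in Cy3. The measured ratio was 1.40 ± 0.059, or 2.64-fold. As untreated RNA gave no more than a bound, its level was replaced by the array's detection limit (the lowest signal of any probe flagged as well above background) where that was higher. Bmp2 was then at least 2.62-fold higher with RankL, as a mean of both arrays. Each fold given here as "at least" is such a mean, and a single array can fall below it. For Bmp6, Bmp8a, Pdgfrb and Lyve1 no level was replaced, so the fold is that of the measured ratio. The 10 spots ran from 1.18 to 1.62 on array 1 (median 1.51) and from 0.96 to 1.64 on array 2 (median 1.44). Each spot lay above 0, but the gene was measured through RankL RNA alone and the spots repeat 1 probe. Nothing is therefore read from their shared sign. Bmp2 read 2.01 with a normexp offset of 16 in place of 50 and 3.87 with the software's ratios.

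Bmp8b was dim in untreated RNA as well, at 6.17 and 6.004, against 6.62 and 6.67 in RankL RNA. Its ratio was 0.56 ± 0.15, and it was at least 1.37-fold higher. It fell short of the size rule, but the scanner software's ratios gave 2.38. Bmp8a, a close copy of Bmp8b whose transcript its probe may also bind, was dim in untreated RNA too and at least 1.17-fold higher. Values for either of these genes alone are uncertain.

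Bmp3, a divergent family member known to oppose other BMPs, had the lowest ratio of the set. It was at 8.72 and 8.56 in untreated RNA and at 6.45 and 6.49 in RankL RNA. In RankL RNA the probe was well above background on array 2 and not on array 1, where the spot had a brightness of 54 over a background of 25. The ratio was -2.17 ± 0.14, a 4.50-fold lower level, with a size that depends on the background correction. An offset of 16 gave -2.75 and the software's ratios gave -3.94.

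Bmp7 was read by 2 probes, both well above background in each RNA on both arrays. The brighter one was at 9.95 and 9.78 in RankL RNA and at 10.55 and 10.63 in untreated RNA, for a ratio of -0.72 ± 0.18. The other, printed 10 times, gave -0.74 ± 0.014. Its usable spots numbered 9 and 8, and all lay below 0, from -1.03 to -0.41 on array 1 and from -1.09 to -0.51 on array 2. The difference was 1.65-fold and exceeded the spread between arrays, spots and probes, but it stayed short of the size rule in each setting tried.

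Bmp4, a ligand made mainly by the stroma in the intestine, was not measured. Its probe, printed 10 times, was well above background in 0 of 10 spots in untreated RNA on both arrays. In RankL RNA this was 0 spots on array 1 and 1 on array 2. The spot ratios ran from -0.077 to 0.39 on array 1 and from -0.097 to 0.32 on array 2, on both sides of 0. No fold is given, as both RNAs were at background.

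**Figure D3:**
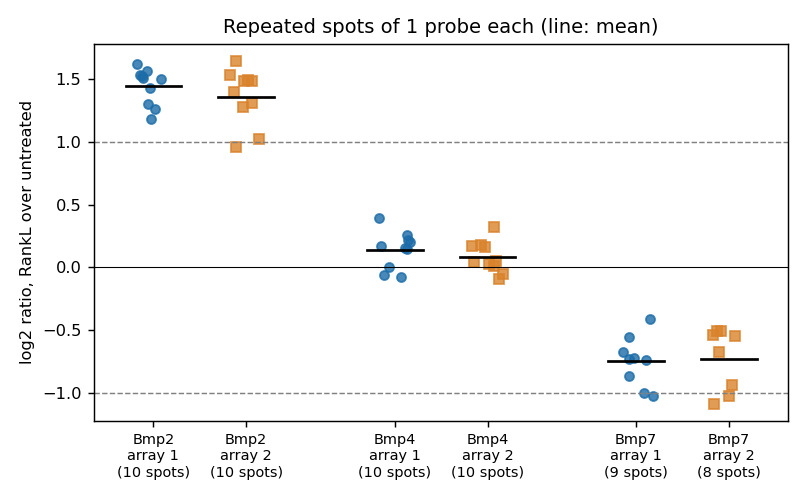
Log2 ratio of RankL over untreated at each usable spot of the Bmp2, Bmp4 and Bmp7 probes that are printed 10 times, by array, with the mean as a line and dashed lines at -1 and 1. Bmp2 spots lie between 0.96 and 1.64, Bmp4 spots on both sides of 0 and Bmp7 spots between -1.09 and -0.41.

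Bmp1 is no BMP ligand but a metalloprotease that trims procollagen and cleaves the BMP antagonist chordin. Its 2 probes disagreed. The probe designed on the transcript NM_009755 was at 7.86 and 8.11 in RankL RNA and at 6.80 and 6.61 in untreated RNA, a ratio of 1.28 ± 0.31. The probe designed on NR_033241, a non-coding transcript by its RefSeq prefix, was at 6.89 and 6.86 in RankL RNA and at 6.97 and 6.87 in untreated RNA, a ratio of -0.047 ± 0.050. The first ratio exceeded the second by 1.14 on array 1 and 1.51 on array 2. The gene takes the value of its brighter probe, so the call for Bmp1 rests on the first probe, and the median of both, 0.62, did not meet the size rule. The ratio of the first probe was 1.64 with an offset of 16 and 2.26 with the software's ratios.

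Few other genes of the pathway met the size rule. Of 74 such genes with a probe, from lists of ligands, proteases, receptors, antagonists, Smads, targets, Id partners and the TGF-beta arm, 36 were measured. By the size rule 2 were higher (5.56%) and 1 lower (2.78%), close to 5.47% and 2.5% of all genes, and the median was 0.11. Among the other ligands 2 of 8 were measured. Bmp6, which signals like Bmp7, was at 7.44 on each array in RankL RNA and dim in untreated RNA, and was at least 2.25-fold higher (ratio 1.17 ± 0.14), while a second probe was at background in both RNAs. The smaller offset raised the ratio of Bmp6 to 1.69, and the software's own value was 3.92. The convertase gene Pcsk6, whose product cleaves TGF-beta family precursors, was lower at -1.97 ± 0.29. It was above background in RankL RNA on array 2 and not on array 1, and its second probe was dim in both RNAs. Its ratio was -2.49 with an offset of 16 and -3.67 with the software's ratios. The related Pcsk5 was at -0.82 ± 0.10, Furin at -0.096 ± 0.63 and Pcolce, which enhances Bmp1 and was above background in untreated RNA on 1 array of 2, at 0.43 ± 0.11.

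Of the receptors and co-receptors 0 of 5 measured genes met the rule, with a median of -0.32. The co-receptor Rgma was at -0.72 ± 0.14, but in RankL RNA it was above background on 1 array of 2, and the software's ratios gave -1.99. The type II receptor Acvr2b was at -0.37 ± 0.057 and the type I receptor Bmpr1a at -0.32 ± 0.64, with opposite signs on the 2 arrays. Among 6 measured secreted antagonists Nbl1, also called DAN, was higher at 1.75 ± 0.21, or 3.36-fold. Its level was 9.54 and 9.71 in RankL RNA and 7.64 and 8.11 in untreated RNA. Twsg1, above background in RankL RNA on 1 array of 2, was at 0.24 ± 0.0074 and Nog, the gene of Noggin, at 0.14 ± 0.018.

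Smads and their regulators gave 0 calls in 10 measured genes, with a median of 0.059. The farthest from 0 were Smad3 at -0.36 ± 0.080, Smurf1 at 0.34 ± 0.30 and Skil at 0.33 ± 0.29. Smad3 was above background in RankL RNA on 1 array of 2, and the software's ratios gave -1.30. Of 8 further BMP-responsive genes 3 were measured and 0 met the rule. Atoh8, above background in untreated RNA on 1 array of 2, was at 0.57 ± 0.050, Bambi, a decoy receptor, at 0.27 ± 0.17 and Msx1 at -0.014 ± 0.12. The software's ratios gave 1.46 for Atoh8, 0.57 for Bambi and 0.13 for Msx1. Smad7, Smad9, Id4, Msx2 and Hey1 were not measured. Of these, Smad7 and Hey1 were each above background in RankL RNA on 1 array of 2, so whether they changed is not known. The E protein genes that Id proteins bind were at 0.32 ± 0.094 (Tcf3), 0.21 ± 0.077 (Tcf12) and 0.18 ± 0.042 (Tcf4), while second probes of Tcf3 and Tcf12 read -0.092 and -0.15. In the TGF-beta arm the receptors Tgfbr1 and Tgfbr2 were at 0.81 ± 0.27 and -0.74 ± 0.44 and Tgfb3 at 0.12 ± 0.078.

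**Figure D4:**
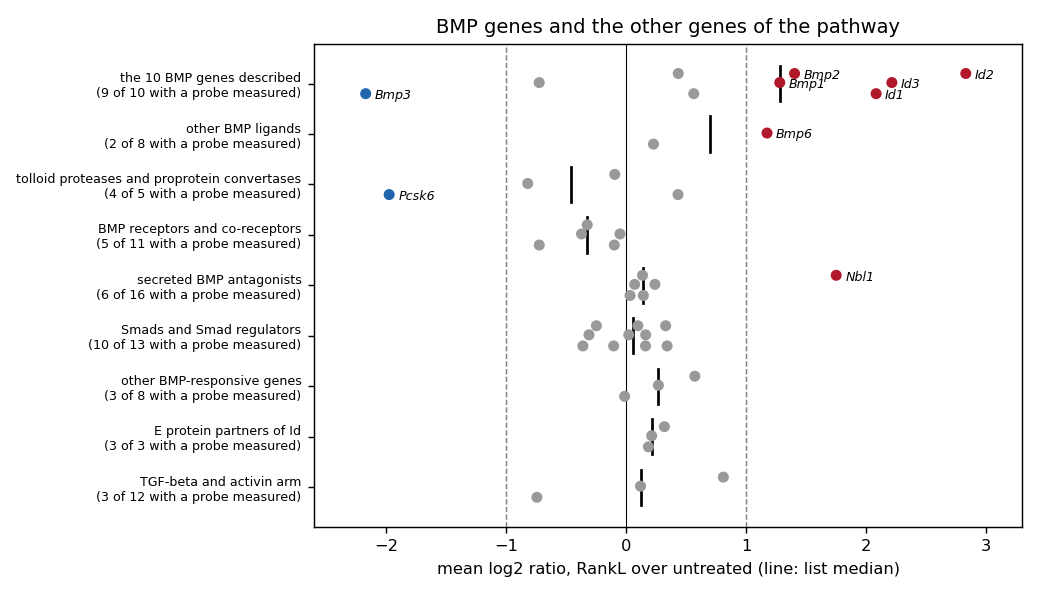
Mean log2 ratio of RankL over untreated for each measured gene of the set and of 8 pathway lists, red if higher and blue if lower by the size rule, grey if neither, with the list median as a line and dashed lines at -1 and 1. Outside the 10 genes the called ones are Bmp6, Nbl1 and Pcsk6.

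Cell type markers moved between the same RNAs. All 9 M cell markers, a list partly known from the study of these organoids, were higher with RankL, by a median of 4.21. Their summed normalized intensity was 107251 and 108164 in RankL RNA against 7444 and 6791 in untreated RNA. Each sum here adds the brightest probe of each marker, with dim, unmeasured markers included. Levels of different probes are not comparable, so a sum follows its brightest probes and sums of different lists cannot be compared. Of 9 enterocyte markers 5 were higher (Anpep, Apoa4, Krt20, Slc2a5 and Fabp2) and 1 lower, Fabp1 at -3.02 ± 0.29, with a list median of 1.09. Their sums were 130751 and 123293 against 106923 and 127415. Fabp1 was at 12.70 and 13.52 in RankL RNA and at 15.92 and 16.33 in untreated RNA, and weighs heavily on the untreated sums. Of 4 stem cell markers 0 were higher and 2 lower, Lgr5 and Smoc2, with sums of 1199 and 1228 in RankL RNA and 3703 and 3636 in untreated RNA. Of 4 Paneth cell markers 2 were higher, Mmp7 and Lyz1, and 1 lower, Itln1 (sums 5197 and 5337 against 1787 and 1695). Of 4 measured enteroendocrine markers 2 were higher, Sct and Cck, and 0 lower (20850 and 20861 against 13100 and 10809). Of 5 goblet cell markers 2 were higher, Fcgbp and Clca1, and 1 lower, Spink4 (15278 and 14594 against 13922 and 14888). The 13 mesenchymal markers, 9 of them dim, summed to 3014 and 2959 with RankL and 2239 and 2238 without. Of the 4 measured, Pdgfrb was higher by at least 1.87-fold from a dim untreated level. The measured probes of Acta2 read 0.62 ± 0.036 and -0.087. The first of these was the brightest, at 10.88 and 10.87 with RankL and 10.24 and 10.27 without. Col1a2 was at 0.17 ± 0.17 and Vim at -0.067 ± 0.0077. The part of these shifts in the ratios of the Id and BMP genes was not tested.

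The calls for Id1, Id2 and Id3 held in each of 8 alternative settings, with ratios from 1.95 to 2.42, from 2.70 to 3.10 and from 2.12 to 2.61. Bmp2 was called higher and Bmp3 lower in each of the 7 settings that kept them, but their sizes ranged from 1.36 to 3.87 and from -3.94 to -2.07. Both were left out where a probe had to be well above background in both RNAs on both arrays. In the main setting each was measured through its brighter RNA alone, so agreement among the 7 settings is no test of direction. Bmp1 was called higher in 7 of 8 settings, from 0.62 to 2.26, and lost the call with the median over probes. Bmp8b was called higher in 1 of 7, with the software's ratios, which made 6 of the 9 genes higher in place of 5. Smad6 and Bmp7 met the rule in 0 of 8 settings.

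**Figure D5:**
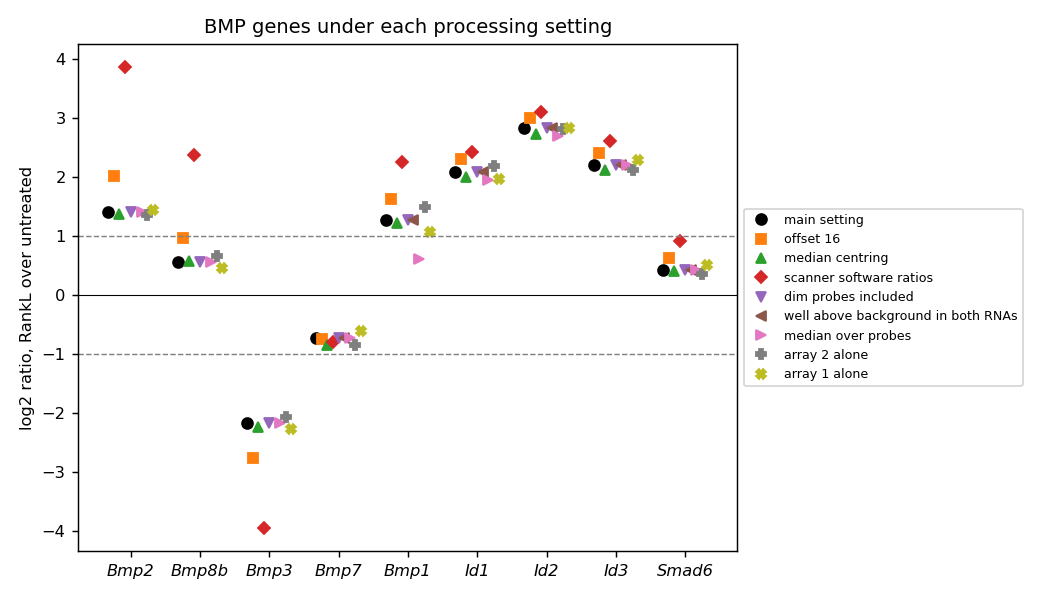
Log2 ratio of RankL over untreated for each gene under the main setting (black) and each alternative, with dashed lines at -1 and 1. The settings lie close together for Id1, Id2, Id3 and Bmp7, while the software's ratios stand apart for Bmp2 (3.87), Bmp8b (2.38) and Bmp3 (-3.94), which are dim in 1 RNA. They are also the highest for Bmp1 (2.26) and Smad6 (0.91), which were well above background in both RNAs.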

How the data were processed

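Total RNA was labelled with Cy3 or Cy5 and hybridised to 2 dual-colour Agilent mouse arrays, per the labels' protocols. The deposited scanner files hold the median spot and local background intensity of each channel, not normalized, made with Feature Extraction 10.5.1.1 per the file headers. The submitters' processing notes give 8.5.1.1 as the version. The deposited log10 ratios were background-subtracted and dye-normalized by that software, per the file headers. The authors' series matrix holds the same log10 ratios as RankL over untreated, within 5.0e-06 of the scanner files and with a median of 0 in each column. Flags mark spots well above background, per the file headers. Array precision is limited by the 1 RNA pair.

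Intensities were corrected with normexp (offset 50) and normalized by loess within each array in limma 3.58.1 under R 4.3.3, with 1639 control spots at weight 0. Outlier spots were left out, spots of a probe averaged and ratios turned to RankL over untreated. A probe printed several times was well above background if at least 0.5 of its spots were. A gene took its brightest measured probe. Levels per RNA, on which bounds rest, followed Aquantile scaling between arrays. The procedure was tested on simulated data in which only spots well above background in both RNAs on both arrays were changed. That simulation does not cover probes dim in 1 RNA, such as those of Bmp2 and Bmp3. Symbols came from a RefSeq table of GRCm38.p6, and no coordinate of the array's own build (mm9) is printed. Each gene of the set is named. Genes of the pathway lists are named where they met the size rule, or as the 3 farthest from 0 in a list, and others to complete a count. Genes and lists were chosen with earlier results of these data known. Alternatives were the software's ratios, an offset of 16, median centring, 2 other filters on dim probes, the median over probes and each array alone.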

Additional observations from a re-analysis of the deposited data

How the results depend on the processing

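No result changed direction among those called. With the scanner software's ratios 1148 genes were higher and 781 lower, against 704 and 322, and 5 pathway genes were higher and 4 lower, against 2 and 1 (those added were Bmp8a, Atoh8 and Tgfbr1, and Pcsk5, Rgma and Smad3). With an offset of 16, 3 pathway genes were lower (Pcsk6, Pcsk5 and Rgma). Where probes had to be well above background in both RNAs, 0 of the BMP genes and 0 pathway genes were lower and 1 pathway gene, Nbl1, was higher, since Bmp3, Pcsk6 and Bmp6 were no longer tested. With 1 array alone the pathway genes called lower numbered 1 to 2, the second being Tgfbr2 on array 2. Median centring gave 61.1% of called genes as higher, against 68.6%, and a median of -0.059 over all genes. No paired analysis was possible because the 2 arrays hold 1 RNA pair. Dim signal left Bmp4 unmeasured. The sizes of Bmp1, Bmp2, Bmp3, Bmp8b and Smad6, and of Bmp6 and Pcsk6, depend on the background correction.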
